A study of Ananas comosus with 9 samples.

Results

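Peel of pineapple (Ananas comosus) holds 3 genes that stand for successive steps of chlorophyll breakdown, the degreening pathway of leaves and fruit. The first is Aco000337 (model Aco000337.1.path1), annotated as a chlorophyll b reductase by a code that covers both NYC1 and NOL. The second is Aco013139 (Aco013139.1.path1), annotated as the magnesium dechelatase STAY-GREEN. The third is Aco022956 (Aco022956.1.path1), annotated as pheophorbide a oxygenase (PAO). These genes are 3 of the 26730 gene models in the deposited table. They were picked by identifier with their values at these ages already known. Their levels and fold changes are therefore given as descriptions without a test. The peels were sampled at 60, 90 and 120 DAF (days after flowering), with 3 poly(A) RNA-seq libraries per age and no treatment or genotype named. The series was made to study peel discoloration in maturing fruit. Whether replicates of 1 age are separate fruits or plants is not stated, so each p-value below measures the spread between libraries, which may be technical.

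Chlorophyll is taken apart inside the chloroplast. In Arabidopsis, chlorophyll b is first reduced back towards chlorophyll a by the reductases NYC1 and NOL and by hydroxymethyl chlorophyll a reductase. STAY-GREEN then pulls the central magnesium out of chlorophyll a, which leaves pheophytin a, and pheophytinase removes the phytol tail to give pheophorbide a. PAO opens the ring of pheophorbide a, and with it the green colour is lost. Plants without PAO accumulate a phototoxic intermediate, and plants without STAY-GREEN keep green tissue during senescence, as did the green-cotyledon peas of Mendel. Fruit peel runs the same pathway while it degreens.

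Library totals ran from 35038248 to 52937826 counts. The smallest count of any of the 3 genes was 1682 (Aco013139, replicate 2 of 90 DAF), which carries a counting error of 2.44%, so depth did not limit their values. The labelled tissue was checked against 2 lists of genes chosen by KEGG ortholog code. The 36 epidermis and cuticle genes (alkane synthesis, fatty acid elongation, fatty acyl reduction) had sums of 239 to 264 FPKM at 60 DAF, of 256 to 468 FPKM at 90 DAF and of 125 to 264 FPKM at 120 DAF. FPKM is fragments per kilobase scaled to library depth, so levels of different genes can be set side by side. Of those 36 genes, 9, 5 and 9 were at 0 counts in every library of 60, 90 and 120 DAF, and 14, 16 and 8 reached 1 FPKM in all 3. The 25 genes of photosynthetic tissue (light-harvesting proteins and a Rubisco small subunit) had sums of 124 to 252 FPKM at 60 DAF, of 349 to 2771 FPKM at 90 DAF and of 36.9 to 56.1 FPKM at 120 DAF. Of these, 3, 2 and 3 genes were at 0 counts at the 3 ages. The 24 light-harvesting genes alone summed to 124 to 252, 349 to 2769 and 36.8 to 56.1 FPKM at the 3 ages. The Rubisco gene thus added almost nothing, and this check rests on the light-harvesting genes. In bulk peel, fewer green cells and less RNA per green cell cannot be told apart, and the part of tissue makeup in the levels below was not tested.

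Chlorophyll b reductase Aco000337 lies on contig 13 at 2609109 to 2615425 (plus strand) and is annotated to the entry step for chlorophyll b. Its level was 66.4, 60.2 and 57.9 FPKM at 60 DAF, 71.1, 49.7 and 45.8 FPKM at 90 DAF, and 150.3, 105 and 186 FPKM at 120 DAF. The 120 DAF libraries all stood above the other 6, the lowest of them 1.48 times the highest 90 DAF library and 1.59 times the highest 60 DAF library. The 90 DAF libraries lay on both sides of the 60 DAF libraries. Means were 61.5 ± 4.39, 55.5 ± 13.6 and 147 ± 40.4 FPKM at 60, 90 and 120 DAF (SD, n = 3 each). From 1 edgeR fit to all genes, the log2 fold change was 1.72 ± 0.25 for 120 over 90 DAF, a 3.29-fold higher level, and 1.55 ± 0.25 for 120 over 60 DAF (SE). For 90 over 60 DAF it was -0.17 ± 0.24. Among all 26730 gene models ordered by mean FPKM, Aco000337 ranked 2698 at 60 DAF, 3224 at 90 DAF and 932 at 120 DAF.

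STAY-GREEN Aco013139 lies on contig 25 at 7829747 to 7831575 (minus strand) and is annotated as the enzyme that commits chlorophyll a to breakdown. Its level was 169, 69.8 and 130 FPKM at 60 DAF, 164, 36.6 and 123 FPKM at 90 DAF, and 551, 336.6 and 292 FPKM at 120 DAF. It was the most variable of the 3 genes at each age, with a coefficient of variation of 40.6, 60.2 and 35.3% at 60, 90 and 120 DAF against 7.14 to 27.5% for the other two. At 60 and 90 DAF replicate 2 was the low library, and at 90 DAF the highest library was 4.47 times the lowest. Even so, the lowest 120 DAF library was 1.78 times the highest 90 DAF library and 1.73 times the highest 60 DAF library. Means were 123 ± 49.9, 108 ± 64.9 and 393 ± 139 FPKM at 60, 90 and 120 DAF (SD, n = 3 each). The log2 fold change was 2.15 ± 0.58 for 120 over 90 DAF, a 4.45-fold higher level, and 1.95 ± 0.57 for 120 over 60 DAF (SE). Of the tested genes, 2.91% had a larger log2 fold change for 120 over 90 DAF. For 90 over 60 DAF the value was -0.20 ± 0.55, and its sign turned when replicate 1 of 60 DAF or replicate 2 of 90 DAF was left out, within -0.54 to 0.21 over the alternatives tried. By mean level Aco013139 ranked 1133, 1396 and 247 among all gene models at 60, 90 and 120 DAF.

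The Aco013139 model lies wholly inside a much longer model on the opposite strand, Aco013131, at 7742851 to 7956974 of contig 25. Aco013131 stood at 10.3 ± 2.50, 9.38 ± 1.57 and 2.42 ± 1.78 FPKM at 60, 90 and 120 DAF (SD, n = 3 each). The strand setting of the counting is not given in the sources used here, so reads of the 2 strands may have been mixed. The level of Aco013131 was lower at 120 DAF, where that of Aco013139 was higher.

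Pheophorbide a oxygenase Aco022956 lies on contig 9 at 3156166 to 3159691 (minus strand) and is annotated as the ring-opening enzyme that ends the green steps. Its level was 59.1, 50.8 and 44.4 FPKM at 60 DAF, 76.0, 69.0 and 107 FPKM at 90 DAF, and 88.2, 132 and 88.5 FPKM at 120 DAF. Unlike the other two genes, its 90 DAF libraries all stood above its 60 DAF libraries, the lowest of them 1.168 times the highest. Its 120 DAF libraries overlapped those of 90 DAF. Means were 51.4 ± 7.35, 84.1 ± 20.3 and 103 ± 25.5 FPKM at 60, 90 and 120 DAF (SD, n = 3 each). The log2 fold change was 0.72 ± 0.27 for 90 over 60 DAF, 0.55 ± 0.26 for 120 over 90 DAF and 1.27 ± 0.27 for 120 over 60 DAF (SE), the last a 2.41-fold higher level. It ranked 3308, 1946 and 1436 among all gene models at 60, 90 and 120 DAF.

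**Figure D1:**
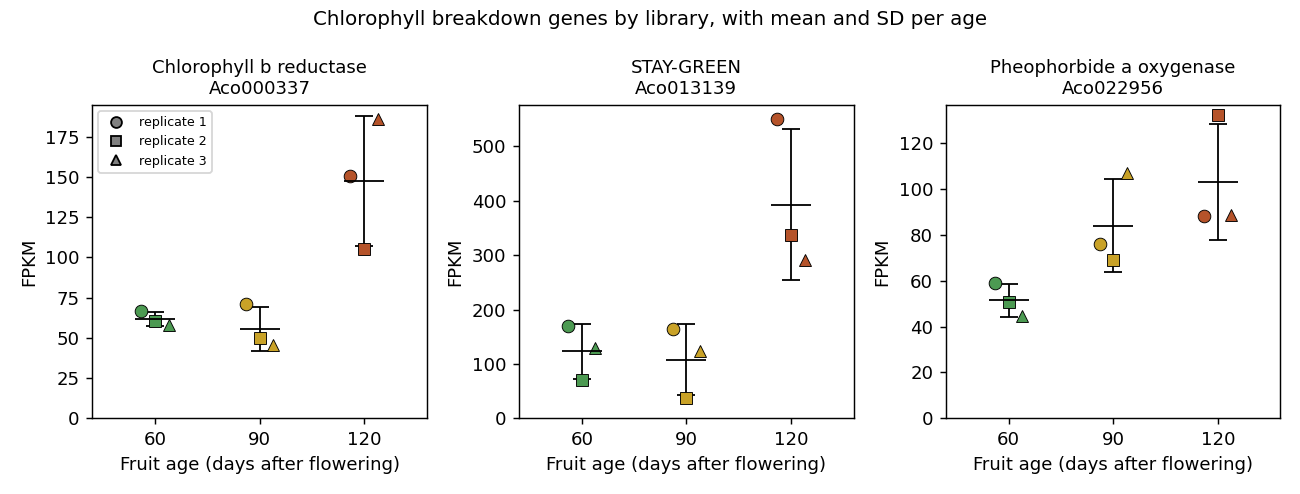
FPKM (y axes, linear and starting at 0) against fruit age in days after flowering (x axes) for Aco000337, Aco013139 and Aco022956, 1 panel each. Points are the 3 libraries of an age, and the mark with bars is the mean ± SD. Aco000337 and Aco013139 lie low at 60 and 90 DAF and high at 120 DAF (means of 147 and 393 FPKM), while Aco022956 steps through 51.4, 84.1 and 103 FPKM.

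The share of tested genes whose libraries did not overlap and were higher gives a background for these patterns. For 90 over 60 DAF, 1 of the 3 genes (Aco022956) lay wholly above, against 10.4% of tested genes. For 120 over 90 DAF, 2 of 3 (Aco000337 and Aco013139) lay wholly above, against 8.73%. For 120 over 60 DAF all 3 did, against 9.71%. Since the genes were picked with these values known, nothing is read from those counts. Over every alternative tried, including each library left out, the log2 fold change for 120 over 90 DAF ran from 1.38 to 1.93 for Aco000337, from 1.74 to 2.49 for Aco013139 and from 0.29 to 0.84 for Aco022956.

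The order of the 3 genes by level was not the same at each age. Aco013139 was above Aco000337 and above Aco022956 in 3, 2 and 3 libraries of 60, 90 and 120 DAF, the exception each time being replicate 2 of 90 DAF. In that library the ratio of Aco013139 to Aco022956 was 0.530, against 2.15 and 1.15 in replicates 1 and 3 of the same age. At 60 DAF this ratio was 2.86, 1.38 and 2.93, and at 120 DAF it was 6.25, 2.54 and 3.30. The order of the entry enzyme and the ring-opening enzyme differed between ages: the ratio of Aco000337 to Aco022956 was 1.12, 1.19 and 1.303 in the 60 DAF libraries, 0.935, 0.721 and 0.427 in the 90 DAF libraries, and 1.70, 0.795 and 2.10 in the 120 DAF libraries. Aco022956 was thus the higher of the pair in all 3 libraries of 90 DAF, in none of 60 DAF and in 1 of 120 DAF. Across libraries the levels of Aco000337 and Aco022956 overlapped at each age, so their order was read within libraries. Aco013139 lay above every value of both at 60 and 120 DAF, and overlapped both at 90 DAF.

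**Figure D2:**
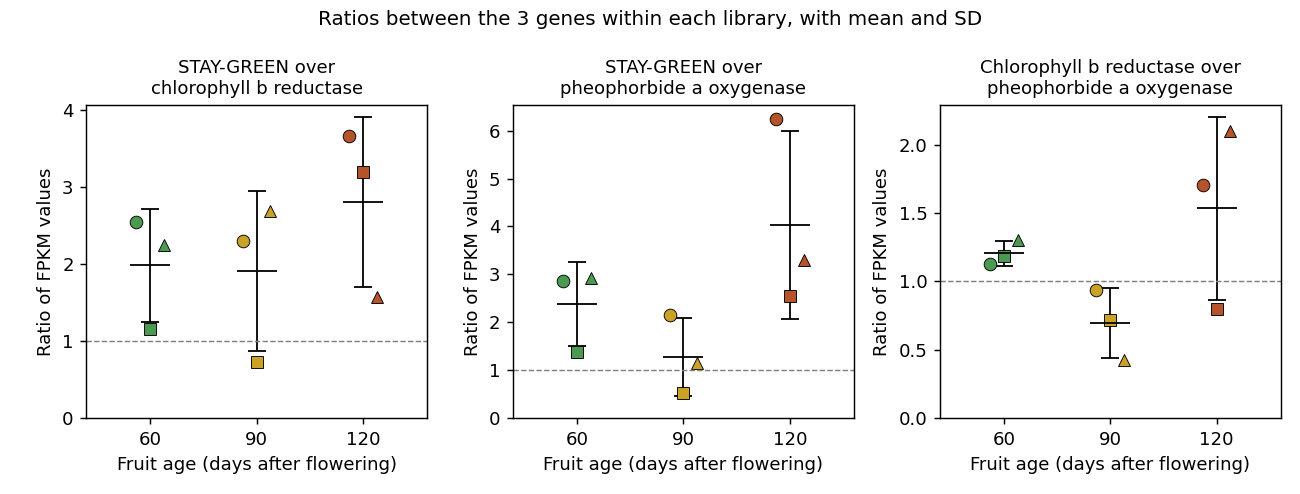
Ratio of FPKM values within each library (y axes, linear and starting at 0) against fruit age in days after flowering (x axes), 1 panel per pair of genes. Points are libraries, the mark with bars is the mean ± SD (n = 3), and the dashed line is a ratio of 1. The 3 libraries of 90 DAF lie below 1 for Aco000337 over Aco022956 (0.427 to 0.935), and replicate 2 of 90 DAF is the library below 1 for both ratios of Aco013139.

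Within an age the 3 genes did not share a high library, except at 60 DAF, where replicate 1 was highest for all of them. At 120 DAF replicate 1 was highest for Aco013139, replicate 3 for Aco000337 and replicate 2 for Aco022956. Over the 9 libraries, Pearson's r of log2 CPM (counts scaled to library size) was 0.850 for Aco013139 with Aco000337, 0.646 for Aco013139 with Aco022956 and 0.599 for Aco000337 with Aco022956. These describe libraries that share 3 ages, and carry no test.

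All genes coded for chlorophyll breakdown (14, the 3 described here included) summed to 498 ± 68.4, 653 ± 125 and 1057 ± 167 FPKM at 60, 90 and 120 DAF (SD, n = 3 each). The 3 genes took 46.9 ± 4.95, 37.2 ± 6.80 and 60.6 ± 2.35% of that sum, and Aco013139 alone took 24.1, 15.7 and 36.5%. The remaining 11 genes summed to 262 ± 12.3, 405 ± 56.8 and 414 ± 41.8 FPKM. In FPKM, the sums of the remaining genes at 120 and 90 DAF were near level. FPKM lacks the TMM library scaling of the fitted fold changes. Under that scaling, 120 DAF values (factors 0.849 to 0.911) stand higher relative to 90 DAF values (0.973 to 1.15). The sums hold opposite differences. Pheophytinase averaged 187 FPKM at 120 DAF and 129 FPKM at 90 DAF, and TIC 55 averaged 102 and 47.0 FPKM. Others were lower at 120 DAF. Aco022956 itself differed less between those ages, at 103 and 84.1 FPKM.

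Light-harvesting proteins hold most of the chlorophyll of the antenna, and their transcripts were lowest at 120 DAF. The 24 light-harvesting genes summed to 124, 252 and 175 FPKM at 60 DAF, 590, 2769 and 349 FPKM at 90 DAF, and 38.2, 36.8 and 56.1 FPKM at 120 DAF. The 3 breakdown genes summed to 294, 181 and 232 FPKM at 60 DAF, 311, 155 and 276 FPKM at 90 DAF, and 790, 574 and 566 FPKM at 120 DAF. The 120 DAF libraries lay apart from all others in both sums. Since the 3 genes were picked with their values known, nothing is read from the separation of their sum or of the ratio that uses it. The ratio of breakdown to light-harvesting transcripts was 2.38, 0.718 and 1.32 in the 60 DAF libraries, 0.527, 0.0561 and 0.792 in the 90 DAF libraries, and 20.6, 15.6 and 10.1 in the 120 DAF libraries. Within each age, the library with the highest light-harvesting sum had the lowest Aco013139. It was replicate 2 at 60 and 90 DAF and replicate 3 at 120 DAF.

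**Figure D3:**
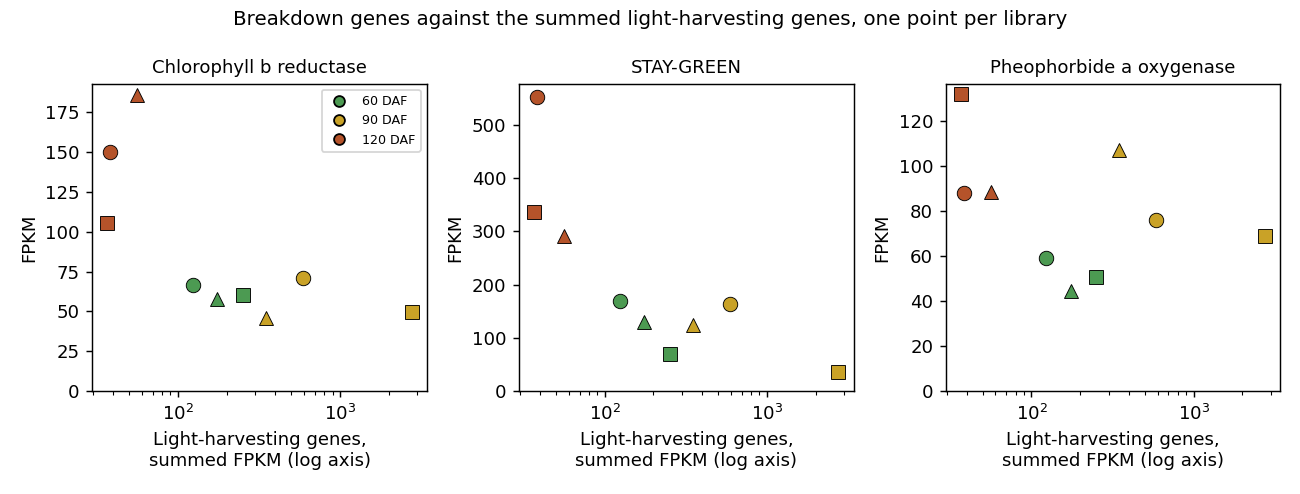
FPKM of each of the 3 breakdown genes (y axes, linear) against summed FPKM of 24 light-harvesting genes (x axes, log), 1 panel per gene. Points are libraries, coloured by age, with a marker shape for each replicate number. The 120 DAF libraries sit farthest left (36.8 to 56.1 FPKM on the x axes). Replicate 2 of 90 DAF sits farthest right (2769 FPKM), where Aco013139 was at 36.6 FPKM.

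The other genes coded for the pathway were tested, with p-values adjusted over all 16791 genes that reached 1 FPKM in at least 3 libraries. Of the 14 genes, 11 passed that filter, and 8 of these were not picked by the rule. Among the 8, edgeR called 0 for 90 against 60 DAF, where it called 0.786% of all tested genes (0.322% higher, 0.465% lower). In that comparison 2 of the 8 were higher at an unadjusted p below 0.05, and DESeq2 called 0. For 120 against 90 DAF it called 1 lower and 0 higher, against 17.4% of all tested genes (9.17% lower, 8.19% higher). For 120 against 60 DAF it called 1 higher and 0 lower, against 9.47% of all tested genes (4.25% higher, 5.22% lower). Their median log2 fold change was 0.67 for 90 over 60 DAF, -0.49 for 120 over 90 DAF and 0.06 for 120 over 60 DAF, against 0.03, -0.03 and -0.01 over all tested genes. The first median was 0.40 without replicate 2 of 90 DAF, and with scaling to total counts the second was -0.80 and the third -0.22. By count the called shares lie near the background.

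At the chlorophyll b step, Aco005164 carries the same chlorophyll b reductase code as Aco000337, on contig 8 at 2614759 to 2618126. It stood at 13.8, 14.7 and 16.7 FPKM at 60 DAF, 20.6, 40.7 and 12.3 FPKM at 90 DAF, and 8.66, 7.21 and 8.70 FPKM at 120 DAF. All 120 DAF libraries lay below all others, an arrangement of 27.3% of tested genes against 90 DAF and of 33.7% against 60 DAF, and the reverse of Aco000337. It fell at 120 against 90 DAF (log2 fold change -1.26 ± 0.37, edgeR adjusted p = 0.0487). That call did not survive the loss of any 1 library except replicate 3 of 90 DAF (edgeR adjusted p = 0.0620 to 0.125 without each of the other 8), within 0.00691 to 0.125 over all alternatives. Without replicate 2 of 90 DAF the log2 fold change was -0.71. Hydroxymethyl chlorophyll a reductase Aco010172, which completes the conversion to chlorophyll a, averaged 20.0, 32.5 and 19.9 FPKM at 60, 90 and 120 DAF and passed no test.

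At the magnesium step, 2 further models carry the STAY-GREEN code, Aco019375 and Aco030060. Both are listed at the same place, 6522673 to 6526175 of contig 6, so reads could be split between them. Neither passed the filter: Aco019375 had counts in replicate 2 of 90 DAF alone (1.25 FPKM), and Aco030060 did not exceed 2.04 FPKM in any library. Nearly all reads assigned to STAY-GREEN models in these peels therefore fell on Aco013139.

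At the dephytylation step, pheophytinase Aco007246 had the highest mean level of the 8 tested genes. It stood at 111, 57.4 and 73.7 FPKM at 60 DAF, 128, 76.8 and 182 FPKM at 90 DAF, and 243, 160 and 158 FPKM at 120 DAF. Its 120 DAF libraries overlapped those of 90 DAF and all lay above its 60 DAF libraries, as for 9.71% of tested genes. Aco022956 shared this, but its 90 DAF libraries lay above those of 60 DAF, whereas these ages overlapped for Aco007246. The log2 fold change of Aco007246 for 120 over 60 DAF was 1.49 ± 0.41, with an edgeR adjusted p of 0.0593. That missed the threshold of 0.05, within 0.00607 (DESeq2) to 0.188 over the alternatives. Chlorophyllase-2 Aco004244, an enzyme that removes phytol from chlorophyll itself in the test tube, averaged 12.1, 17.9 and 8.99 FPKM at 60, 90 and 120 DAF and passed no test. A second chlorophyllase-coded gene, Aco010623, stood at 7.55 FPKM in replicate 3 of 90 DAF and at 0.982 FPKM or less elsewhere, and did not pass the filter.

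Beside the oxygenase step, Aco003907 and Aco004803 carry the code of pheophorbidase, which demethylates pheophorbide in some plants. They averaged 43.8, 82.6 and 54.9 FPKM and 49.7, 52.9 and 28.7 FPKM at 60, 90 and 120 DAF, and passed no test. Aco021623, 1 of 2 further genes with the PAO code, lies on contig 8 and stood at 3.78, 5.13 and 5.88 FPKM at 60 DAF, 9.99, 27.3 and 4.88 FPKM at 90 DAF, and 4.27, 3.85 and 2.80 FPKM at 120 DAF. Its log2 fold change for 120 over 90 DAF was -1.63 ± 0.53, with an edgeR adjusted p of 0.0680 (0.0119 to 0.174 over the alternatives). Both Aco005164 and Aco021623 had their highest library in replicate 2 of 90 DAF, the library with the highest light-harvesting sum. Aco010172 and Aco004244 were also highest in that library, at 50.4 and 28.5 FPKM. Without that library the log2 fold changes for 120 over 90 DAF were -0.71 for Aco005164 and -0.73 for Aco021623 (edgeR adjusted p = 0.0765 and 0.156).

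TIC 55 (Aco011588) is the other gene with the PAO code, a chloroplast envelope protein of the same oxygenase family, and in Arabidopsis it hydroxylates a later, colourless breakdown product. It stood at 24.5, 36.1 and 43.1 FPKM at 60 DAF, 44.9, 21.0 and 75.0 FPKM at 90 DAF, and 97.2, 77.8 and 130 FPKM at 120 DAF. All 120 DAF libraries lay above all others, an arrangement of 8.73% of tested genes against 90 DAF and of 9.71% against 60 DAF. The lowest of them was 1.04 times the highest 90 DAF library. It rose at 120 against 60 DAF (log2 fold change 1.85 ± 0.48, 3.61-fold, edgeR adjusted p = 0.04996). The call was lost without each library except replicates 2 and 3 of 90 DAF (edgeR adjusted p = 0.0633 to 0.149), within 0.00253 to 0.149 over all alternatives. For 120 over 90 DAF the log2 fold change was 1.37 ± 0.48 (edgeR adjusted p = 0.0838, within 0.0209 without replicate 3 of 90 DAF to 0.208 over the alternatives, and called also by DESeq2 at 0.0290). No gene carried the code of red chlorophyll catabolite reductase, the enzyme that follows PAO.

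**Figure D4:**
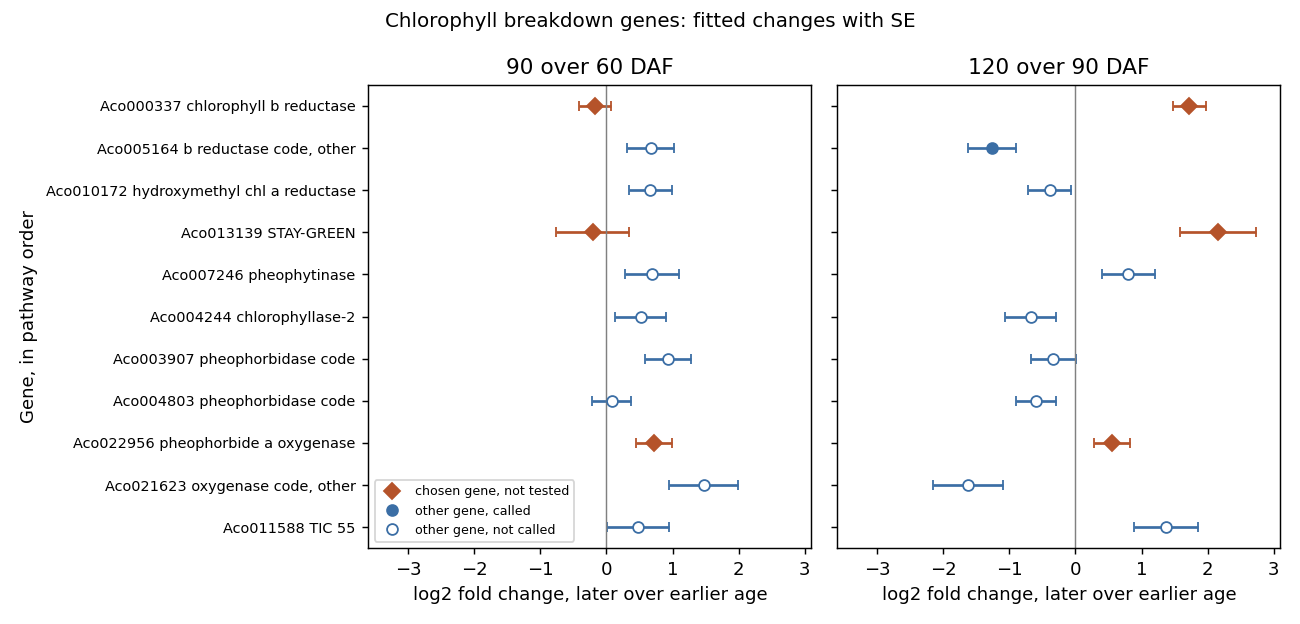
Fitted log2 fold change of the later over the earlier age (x axes, with SE bars) for the 11 chlorophyll breakdown genes that passed the filter (y axis, in pathway order), for 90 over 60 DAF on the left and 120 over 90 DAF on the right. Diamonds are the 3 picked genes, which were not tested, and filled circles are other genes called by edgeR. On the right, Aco013139 (2.15), Aco000337 (1.72) and TIC 55 (1.37) lie farthest to the right, while Aco005164 (-1.26) and Aco021623 (-1.63) lie farthest to the left.

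A further contrast set the later interval (120 over 90 DAF) against the earlier one (90 over 60 DAF). edgeR called 0 of the 8 other breakdown genes in it, against 9.06% of all tested genes (3.57% higher, 5.49% lower), while 2 of the 8 had an unadjusted p below 0.05. The nearest were Aco021623 (-3.10 ± 0.86, edgeR adjusted p = 0.0581) and Aco005164 (-1.93 ± 0.61, edgeR adjusted p = 0.0831).

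Genes around the pathway were described by lists chosen by ortholog code. Of 35 tested chlorophyll synthesis genes, 11 fell and 1 rose at 120 against 90 DAF, with a median log2 fold change of -0.81 that became -0.53 without replicate 2 of 90 DAF. Over all tested genes 9.17% fell and 8.19% rose. The number that fell was 5 to 17 when single libraries were left out, with 5 without any 1 library of 120 DAF, 6 and 7 without replicates 2 and 3 of 60 DAF, and 17 without replicate 3 of 90 DAF. The 1 that rose was lost without replicate 1 of 120 DAF. At 120 against 60 DAF, 3 fell and 1 rose, 11.4% of the list against 9.47% of all tested genes (5.22% lower, 4.25% higher). The 3 became 1 without replicate 3 of 120 DAF, and 11 and 5 without replicates 2 and 3 of 90 DAF. The 1 became 0 without replicate 2 of 60 DAF. At 90 against 60 DAF edgeR called 0 of the 35, while 5 were higher and 1 was lower at an unadjusted p below 0.05, and DESeq2 called 4 higher and 1 lower. Protochlorophyllide reductase Aco007648, which makes chlorophyllide in the light, averaged 84.0 ± 25.4, 168 ± 143 and 2.15 ± 0.83 FPKM at 60, 90 and 120 DAF. It fell at 120 against 90 DAF (log2 fold change -5.95 ± 0.70, edgeR adjusted p = 0.00303) and against 60 DAF (-4.98 ± 0.67, edgeR adjusted p = 0.00742). Magnesium chelatase Aco020178, which inserts the metal that STAY-GREEN removes, averaged 18.9 ± 9.53, 14.2 ± 8.02 and 0.650 ± 0.603 FPKM and fell at 120 against 90 DAF (-4.14 ± 0.78, edgeR adjusted p = 0.0121).

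Of 18 tested light-harvesting genes, 12 fell and 0 rose at 120 against 90 DAF (against 9.17% and 8.19% of all tested genes), with a median log2 fold change of -4.33. The 12 became 7 without replicate 1 of 120 DAF, and the median became -2.82 without replicate 2 of 90 DAF. At 120 against 60 DAF 5 fell and 0 rose, 27.8% of the list against 9.47% of all tested genes (5.22% lower, 4.25% higher). The 5 became 1 to 3 without any 1 library of 60 or 120 DAF and 9 without replicate 2 of 90 DAF. At 90 against 60 DAF 1 rose and 0 fell, 5.56% of the list against 0.786% of all tested genes. The 1 became 3 without replicate 2 of 90 DAF and 0 without any other library except replicate 3 of 90 DAF, and DESeq2 called 9. The antenna gene Aco003394 averaged 7.71 ± 1.63, 217 ± 247 and 0.661 ± 0.133 FPKM at 60, 90 and 120 DAF, and fell at 120 against 90 DAF (log2 fold change -7.99 ± 0.94, edgeR adjusted p = 0.00303).

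The phytol tail released by pheophytinase can be reused for tocopherol (vitamin E). Of 7 tested genes of phytol and tocopherol metabolism, 2 rose and 2 fell at 120 against 90 DAF. These calls were 57.1% of the list, against 17.4% of all tested genes (8.19% higher, 9.17% lower). The fit to only the 2 compared ages called 0 higher and 1 lower. Without single libraries 0 to 2 rose (0 without replicate 1 of 120 DAF, and 1 without replicate 3 of 60 or 120 DAF or any 1 library of 90 DAF), and 1 fell without any 1 library of 120 DAF. The 4-hydroxyphenylpyruvate dioxygenase gene Aco008380, whose product homogentisate is a precursor of tocopherol and of plastoquinone, averaged 69.8 ± 22.1, 56.5 ± 37.8 and 229 ± 42.1 FPKM at 60, 90 and 120 DAF. It rose 5.01-fold at 120 against 90 DAF (log2 fold change 2.33 ± 0.50, edgeR adjusted p = 0.0187, and 0.0612 without replicate 1 of 120 DAF). Both genes with the code of tocopherol methyltransferase were called at this step, in opposite directions. Aco028717 averaged 21.1 ± 6.51, 94.7 ± 32.9 and 12.24 ± 5.35 FPKM and fell at 120 against 90 DAF (-2.65 ± 0.42, edgeR adjusted p = 0.00748). Aco026571 was at 2.14, 0.599 and 12.0 FPKM in the 120 DAF libraries and averaged 0.136 ± 0.0814 FPKM at 90 DAF (SD, n = 3), with a log2 fold change of 5.38 ± 1.38 (edgeR adjusted p = 0.0323). That second call was lost without replicate 1 or 3 of 120 DAF, replicate 3 of 60 DAF or any 1 library of 90 DAF (edgeR adjusted p = 0.0525 to 0.0911).

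A list of hormone and light signalling families placed upstream of degreening in Arabidopsis held 35 tested genes. They were coded as EIN3, ABF/ABI5, PYL, SnRK2 or PIF, and each code takes in a whole family. At 120 against 90 DAF 2 rose and 6 fell, 22.9% of the list against 17.4% of all tested genes. At 120 against 60 DAF 0 rose and 3 fell, 8.57% of the list against 9.47% of all tested genes. For 120 against 60 DAF DESeq2 called 1 higher and 5 lower and edgeR found 3 higher and 8 lower at an unadjusted p below 0.05. The 6 became 3 without replicate 1 of 120 DAF, and the 2 became 0 without replicate 1 or 3 of 120 DAF, and 1 without replicate 1 or 2 of 90 DAF or with total count scaling. At 90 against 60 DAF edgeR called 0, while at an unadjusted p below 0.05 there were 4 higher and 5 lower, and DESeq2 called 1 higher and 3 lower. The gene Aco002505, coded as a PYL receptor of abscisic acid, averaged 44.1 ± 17.9, 93.0 ± 44.5 and 1.69 ± 1.15 FPKM and fell at 120 against 90 DAF (-5.46 ± 0.70, edgeR adjusted p = 0.00368). The gene Aco004914, coded as a phytochrome-interacting factor, fell at the same step (-1.76 ± 0.28, edgeR adjusted p = 0.00755).

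Carotenoids are the pigments that become visible as chlorophyll goes. Of 24 tested carotenoid synthesis genes, 3 rose and 7 fell at 120 against 90 DAF, 41.7% of the list against 17.4% of all tested genes. The 7 that fell became 1 without replicate 1 of 120 DAF and 3 without either other library of that age. The 3 that rose became 1 without replicate 1 of 120 DAF or with total count scaling. The fit to only the 2 compared ages called 1 higher and 2 lower. At 120 against 60 DAF 2 rose and 1 fell, 12.5% of the list against 9.47% of all tested genes. At 90 against 60 DAF 0 rose and 1 fell, 4.17% of the list against 0.786%. That 1 became 0 when any 1 library was left out. Phytoene synthase Aco005022, the first committed step, averaged 5.55 ± 1.299, 10.3 ± 6.15 and 39.7 ± 1.498 FPKM at 60, 90 and 120 DAF. It rose at 120 against 90 DAF (2.27 ± 0.35, edgeR adjusted p = 0.00714) and against 60 DAF (3.12 ± 0.37, edgeR adjusted p = 0.00581). Lycopene epsilon cyclase Aco005888, which leads to lutein, averaged 2.10 ± 0.908, 13.6 ± 14.0 and 0.546 ± 0.0783 FPKM and fell at 120 against 90 DAF (-4.30 ± 0.80, edgeR adjusted p = 0.0117, and 0.0521 without replicate 1 of 120 DAF). Aco016089, coded as violaxanthin de-epoxidase, fell at the same step (-1.73 ± 0.35, edgeR adjusted p = 0.0151, and 0.0505 without replicate 1 of 120 DAF), as did the carotenoid isomerase gene Aco005000 (-1.137 ± 0.195, edgeR adjusted p = 0.00935). Of the epidermis and cuticle genes, 0 rose and 3 of 17 tested fell at 120 against 90 DAF. This share of 17.6% lies near the 17.4% of all tested genes (8.19% higher, 9.17% lower).

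The genes whose pattern was most like each of the 3 were taken by Pearson's r of log2 CPM over the 9 libraries, among 5513 annotated genes with a mean of at least 5 FPKM. For STAY-GREEN Aco013139 the nearest was the dioxygenase gene Aco008380 (r = 0.984), followed by a primary amine oxidase gene, Aco003606 (r = 0.968, with means of 185, 196 and 1117 FPKM at 60, 90 and 120 DAF). Then came a signal recognition particle GTPase gene, Aco005200 (r = 0.967), a proteasome regulatory particle gene, Aco001392 (r = 0.956), and Aco005581 (r = 0.953). Levels of the last 3 moved over a narrower range, with Aco005200 at 58.2, 59.3 and 73.1 FPKM.

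For chlorophyll b reductase Aco000337 the nearest were the oxidoreductase gene Aco015427 (r = 0.991, with means of 1.39, 0.869 and 17.6 FPKM) and Aco012852, annotated as a chloroplastic cationic amino acid transporter (r = 0.988, with means of 30.9, 27.5 and 61.9 FPKM). A transaldolase gene, Aco015068 (r = 0.977), Aco010145 (r = 0.973) and a fructose-bisphosphatase gene, Aco018239 (r = 0.972), followed. For PAO Aco022956 the nearest was Aco005353, coded for uroporphyrinogen methylation on the route to siroheme (r = 0.955, with means of 17.0, 31.5 and 43.5 FPKM). Aco027353 (r = 0.952), Aco023972 (r = 0.946), Aco009272 (r = 0.945) and Aco022563 (r = 0.937) followed. The 3 sets of 5 shared no gene. All these values describe 9 libraries of 3 ages and carry no test.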

How the data were processed

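Peel libraries of 60, 90 and 120 DAF (3 each, 9 in all) were grouped by the age in the labels. Raw counts and the authors' FPKM stand side by side in the deposited table, per the file headers, which lists 26730 models on 25 contigs and writes 0.0001 FPKM for a count of 0. The submitters' processing notes name Bowtie 0.12.2, HISAT2 2.0 and StringTie 1.3.0, with no roles. Build, annotation and strand setting were not given in the sources used here. Contigs and positions are those of the deposited table. Reads could be split between near-identical copies.

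The 16791 genes reaching 1 FPKM in 3 or more libraries were fitted with edgeR 4.0.16 (quasi-likelihood, TMM scaling, 6 residual degrees of freedom, R 4.3.3), with Benjamini-Hochberg adjusted p-values over all of them and a threshold of 0.05. The standard error is the log2 fold change divided by the square root of F. Fold changes carry the TMM scaling (factors 0.849 to 1.15) and FPKM values do not, so ratios of printed FPKM differ from the folds. The script was tested on simulated data. Alternatives used DESeq2 1.42.0 and limma 3.58.1 on log2(FPKM + 1) or log2(FPKM + 0.1), other filters and scalings, only the compared ages, a replicate block, and each library left out.

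The 3 genes and all lists were chosen with earlier results of these data known. Lists rest on KEGG ortholog, EC and GO codes and descriptions. A list of chloroplast proteases matched 0 genes. Named are the 3 genes, every breakdown gene past the filter, up to 4 called genes per list and comparison by smallest p, and the 5 genes most like each of the 3. Of the called list genes the text prints only some, chosen after their values were seen. The breakdown genes below the filter, and the model overlapping Aco013139, were named after their values were seen. Sequences of the 3 genes were not used here.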

Additional observations from a re-analysis of the deposited data

How the results depend on the processing

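The log2 fold changes of the 3 breakdown genes kept their sign under all 18 alternatives, except Aco013139 for 90 over 60 DAF. When single libraries were left out they ran, for 90 over 60 DAF, from -0.33 to -0.08 (Aco000337), -0.54 to 0.21 (Aco013139) and 0.42 to 0.87 (Aco022956). For 120 over 90 DAF they ran from 1.49 to 1.93, 1.74 to 2.49 and 0.37 to 0.84, and for 120 over 60 DAF from 1.32 to 1.76, 1.61 to 2.28 and 1.09 to 1.41. Aco022956 for 120 over 60 DAF was 1.0005 with total count scaling, 0.98 with limma on log2(FPKM + 0.1) and 0.97 on log2(FPKM + 1). Total count scaling shifts the median of all genes by -0.30 (120 over 90 DAF) and -0.28 (120 over 60 DAF), and takes the share of higher calls to 20.2% in both, against 47.2 and 44.9% with TMM. Values here are relative to TMM.

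For 90 against 60 DAF (132 calls), DESeq2 called 1437 genes, limma 209 (+ 0.1) and 293 (+ 1), no filter 76, the 2 compared ages 54, total count scaling 85, and the fit with a replicate block 10. Leaving out 1 library gave 0 to 276. For 120 against 90 DAF (2915 calls), DESeq2 called 4656 and the 2 compared ages 1215, with 1094 to 3164 when a library was left out. For 120 against 60 DAF (1590 calls), DESeq2 called 3391, the 2 compared ages 2585 and the block 995, with 392 to 2452 when a library was left out. The cause was not tested.

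Among the 8 other breakdown genes, the 1 call for 120 against 90 DAF became 3 with DESeq2, 2 with total count scaling, 0 with no filter or the 2 compared ages, and 0 to 3 without a library. The 1 call for 120 against 60 DAF became 2 with DESeq2 or the 2 compared ages, 0 with a filter of 5 FPKM, median-ratio scaling, no filter or total count scaling, and 0 to 2 without a library. The 0 for 90 against 60 DAF stayed 0 to 0. Uncalled values turned for Aco004803 (90 over 60 DAF, -0.15 without replicate 1 of 60 DAF, -0.0031 without replicate 2 of 90 DAF, within -0.15 to 0.26), Aco011588 (90 over 60 DAF, -0.14 without replicate 3 of 90 DAF, within -0.14 to 0.85), Aco003907 (120 over 90 DAF, 0.10 without replicate 3 of 90 DAF, within -0.63 to 0.10), Aco004244 (120 over 60 DAF, 0.038 without replicate 1 of 60 DAF) and Aco010172 (120 over 90 DAF, 0.062 without replicate 2 of 90 DAF, within -0.69 to 0.062). Aco010172 for 120 over 60 DAF was -0.013 and -0.012 with limma (+ 0.1 and + 1) and -0.0074 with total count scaling.

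The labels do not say whether replicate numbers pair the samples. Deviations from the age means correlated at -0.339 to 0.39 over 9 same-numbered pairs, 2 of them above 0.1. Different-numbered pairs ran from -0.36 to 0.312. The check cannot decide pairing, because the deviations of libraries within an age are tied to each other. With the replicate block, Aco005164 for 120 against 90 DAF had an edgeR adjusted p of 0.112 and was no longer called, while Aco011588 at the same step was called higher (1.497 on the log2 scale, edgeR adjusted p = 0.0450), so the count of 1 stayed with another gene and direction.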
